A study of Acipenser schrenckii with 5 samples.

Results

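The microRNAs described here are miR-142 and miR-223, known from other vertebrates as miRNAs of white blood cells. All array probes were taken whose name, after the species prefix, begins with miR-142 or miR-223. This gave 11 of the 663 miRNA probes on the array, 8 for miR-142 and 3 for miR-223, with 55 of the 3315 probe spots. RNA came from liver, spleen, brain, muscle and heart of 1 Amur sturgeon (Acipenser schrenckii), which by the Methods was 5 months old and not the fish used for sequencing. No treatment, strain or sex is given, and each tissue was hybridized to 1 single-color (Cy3) µParaflo array, so there was 1 sample per group. The label of the brain array reads "Bain", and it was taken as brain. There were no replicate fish or arrays, so no test between tissues was possible. The errors below are the SD over the 5 repeat spots of a probe on 1 array, a technical error that leaves out the spread between fish, RNA extracts and arrays. The array was bulk tissue RNA, in which fewer cells of a type and less RNA per cell cannot be told apart.

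A miRNA is a short RNA cut from either arm of a hairpin precursor, named 5p or 3p by its arm, and its seed (bases 2 to 8) pairs with target mRNAs. In vertebrates miR-142 is made in nearly all blood cell lineages, and both arms of its hairpin are used. In mammals and zebrafish miR-223 belongs to the myeloid lineage, where it restrains neutrophil production and activity, and its 3p arm is the main product. The spleen of fishes holds many white and red blood cells. Sturgeons are also known to carry blood-forming lymphomyeloid tissue on the surface of the heart and around the brain, and the sources used here do not say whether it was part of these samples.

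The probe targets are shown because the probes differ from each other by single bases, and the results below turn on these differences. They are those of zebrafish (dre), common carp (ccr), channel catfish (ipu), Japanese medaka (ola) and the pufferfish Tetraodon nigroviridis (tni). The 3 targets on the 3p arm of miR-142 follow, with the seed in capitals.
ccr-miR-142-3p: gUAGUGUUuccuacuuuaugg
ipu-miR-142: gUAGUGUUuccuacuuuaugga
dre-miR-142a-3p: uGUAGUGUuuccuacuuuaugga
Each is the one above it with 1 base added, an A at the 3′ end and then a U at the 5′ end. The U at the 5′ end moves the seed from UAGUGUU to GUAGUGU. The 5p arm of miR-142 was covered by 5 probes, again with the seed in capitals.
dre-miR-142a-5p: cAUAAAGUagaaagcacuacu
tni-miR-142b: cAUAAAGUagaaagcacuacua
ola-miR-142: uCCAUAAAguagaaagcacuac
ccr-miR-142-5p: cAUAAAGUagacagcacuacu
dre-miR-142b-5p: cAUAAAGUagacagcacuacua
The seed of ola-miR-142 is CCAUAAA, since its target starts further upstream on the hairpin, and the other 4 targets have the seed AUAAAGU. With positions counted from 1 at the 5′ end, ccr-miR-142-5p differs from dre-miR-142a-5p by A12C, and dre-miR-142b-5p differs from tni-miR-142b by A12C. Both of these will be called the C form. The 3 targets named miR-223 follow.
dre-miR-223: uGUCAGUUugucaaauacccc
ola-miR-223: uGUCAGUUugucaaauaccc
ipu-miR-223: gAGUAUUUgacagacugugg
Although it has no arm in its name, ipu-miR-223 lies at bases 30 to 49 of the 99-base zebrafish miR-223 hairpin, on the 5p arm, and dre-miR-223 at bases 71 to 91, on the 3p arm. No other probe on the array had any of these seeds. The study sequenced sturgeon miRNAs identical to 4 of the 11 targets, namely dre-miR-142a-5p, dre-miR-142a-3p, ccr-miR-142-3p and dre-miR-223, and the other 7 were measured with the target of another fish only. It also assayed its miR-223 by real-time PCR in the same tissues of several fish. The paper reports that real-time PCR backed its array pattern for the miRNAs assayed, except miR-101a. Those values were not used here.

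Detection of a probe required that 50% or more of its spots exceeded the local empty spots by over 3 SD of all empty spots, with an even pixel density. The arrays differed in quality. Among the 361 empty spots the density had an SD of 58.5 on the liver array, against 4.91 to 17.6 elsewhere, and 197 probes were detected in liver against 333 to 431 in the remaining tissues. Spots that fell below the median of their probe by over 3-fold numbered 30 on the liver array and 0 to 15 on the other arrays. Among the probes described here these were 1 liver spot of ola-miR-223 and 1 of tni-miR-142b. Markers of liver, brain and muscle were highest in the tissue so labelled, and for heart miR-499 alone was. No miRNA specific to spleen was at hand. All 4 miR-122 probes (hepatocytes) were highest in liver, 12 of 13 miR-9 and miR-124 probes (neural cells) were detected and all 12 were highest in brain, all 3 miR-206 probes (skeletal muscle) were highest in muscle, and 3 probes for miR-499 (a miRNA of heart and slow muscle) were highest in heart. The other 16 of the 19 probes for miR-1, miR-133 and miR-499, miRNAs of both heart and skeletal muscle, were highest in muscle. Of these, pol-miR-133-5p was bright in every tissue, with Signal 44249 in liver, 24053 in brain, 20156 in spleen and 12079 in heart. Skin miRNAs (miR-203 and miR-205) were also highest in muscle for 7 of 10 probes, with a summed Signal of 40077 there and 270 to 1218 in the other tissues.

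Of the 11 probes, 7 were detected in all 5 tissues, against 25.6% of all probes on the array. dre-miR-142a-3p was detected in every tissue but liver. These 8 probes, 6 for miR-142 and 2 for the 3p arm of miR-223, carry the tissue pattern. The C form probes were detected in muscle only, and ipu-miR-223 was detected in no tissue. Before any correction, the spots of the 8 probes ran from 753 to 9669 in spleen, from 1905 to 10312 in heart, from 358 to 999 in muscle, from 145 to 1990 in liver and from 269 to 1166 in brain. The medians of the empty spots were 72.9, 52.0, 69.8, 98.4 and 77.6 on the same arrays, so the spots of these probes in spleen and heart stood far above the empty spots.

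**Figure D1:**
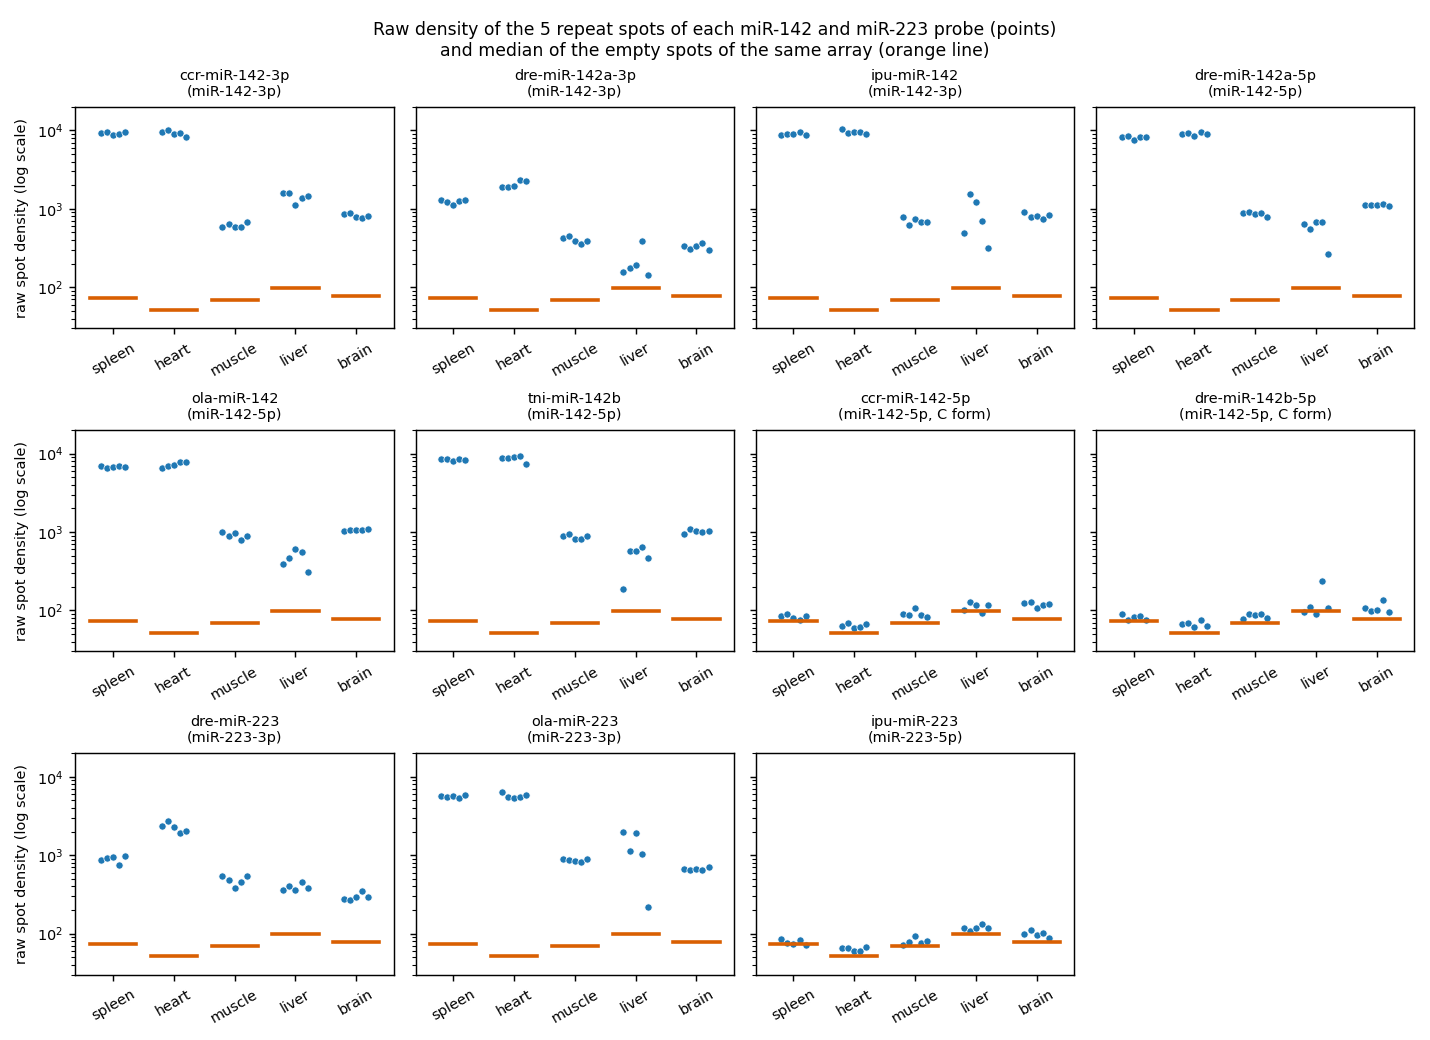
Raw density (log scale, arbitrary units, before background correction and normalization) of the 5 repeat spots of each of the 11 probes in each tissue, with the median of the empty spots of that array as an orange line. Spleen and heart spots are the highest for 8 probes, the liver spots scatter widely for most of them, and the spots of both C form probes and of ipu-miR-223 lie near the empty spots on every array.

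After normalization, both arms of miR-142 gave their highest Signal in spleen, followed by heart. Signal is the background-corrected intensity after cyclic loess between arrays, as the mean ± SD over 5 spots (n = 5 spots of 1 array in every value below). For the 5p arm, dre-miR-142a-5p had Signal 8359 ± 426 in spleen, 4318 ± 162 in heart, 1804 ± 99.3 in muscle, 1229 ± 409 in liver and 795 ± 15.1 in brain. The values of tni-miR-142b, which has 1 more A at the 3′ end, were 8657 ± 304, 4200 ± 370, 1815 ± 131, 1052 ± 419 and 726 ± 28.8 in the same order of tissues. ola-miR-142 had Signal 7136 ± 179 in spleen, 3546 ± 279 in heart, 1910 ± 181 in muscle, 1000.2 ± 282 in liver and 772 ± 19.4 in brain. The 3 probes thus ranked the tissues in the same order, and liver and brain overlapped within the spot spread for tni-miR-142b and ola-miR-142. Their profiles, as log2 Signal centred on the 5 tissues, differed from each other by a root mean square of 0.10 to 0.15.

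For the 3p arm, ccr-miR-142-3p had Signal 9176 ± 184 in spleen, 4377 ± 309 in heart, 3231 ± 462 in liver, 1267 ± 89.3 in muscle and 555 ± 33.5 in brain. ipu-miR-142 had 9297 ± 418 in spleen, 4578 ± 236 in heart, 1911 ± 1204 in liver, 1451 ± 143 in muscle and 569 ± 56.8 in brain. Its muscle value lay inside the liver spread, and the difference of 460 between them was below their combined spot SD of 1212. The longest 3p probe, dre-miR-142a-3p, had Signal 1789 ± 127 in spleen, 1287 ± 114 in heart, 745 ± 69.5 in muscle and 274 ± 19.2 in brain, and was not detected in liver (410 ± 244). Spleen, heart and brain kept the same places for all 6 miR-142 probes, while liver stood above muscle for the 2 shorter 3p probes and below it for the 5p probes. Liver over muscle was 2.55 ± 0.406 for ccr-miR-142-3p and 1.32 ± 0.840 for ipu-miR-142, whereas muscle over liver was 1.47 ± 0.495 for dre-miR-142a-5p, 1.73 ± 0.699 for tni-miR-142b and 1.91 ± 0.568 for ola-miR-142. Of these, the value of ccr-miR-142-3p was the one furthest outside the spread of its spots, and with quantile normalization the liver and muscle Signals of dre-miR-142a-5p were level (ratio 1.01).

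**Figure D2:**
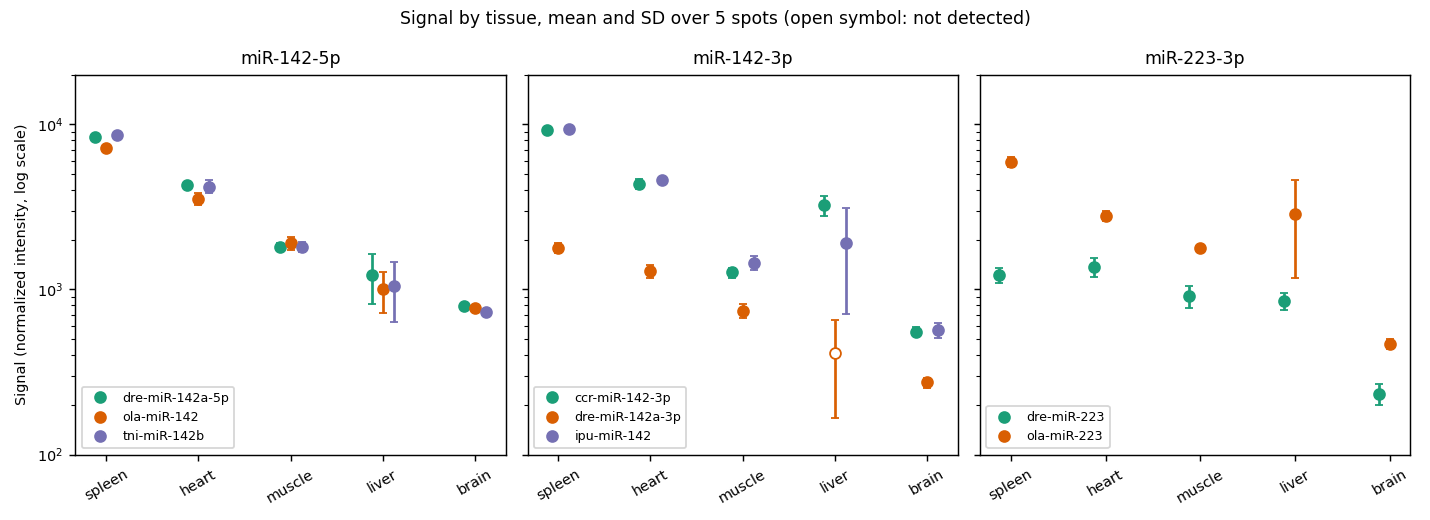
Signal (normalized intensity, log scale) by tissue for the 8 probes detected in at least 4 tissues, as the mean with the SD over 5 spots. Open symbols mark a probe that was not detected. All 6 miR-142 probes fall from spleen to heart and are lowest in brain, where for dre-miR-142a-3p the 4 tissues with detection are compared, and dre-miR-223 is level between spleen and heart.

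The 2 probes for the 3p arm of miR-223 did not give the same picture. ola-miR-223 had Signal 5929 ± 381 in spleen, 2871 ± 1698 in liver, 2799 ± 195 in heart, 1792 ± 68.1 in muscle and 469 ± 35.3 in brain, with liver and heart inside each other's spread. dre-miR-223, whose target has 1 more C at the 3′ end and equals the sequenced sturgeon miR-223, had Signal 1369 ± 182 in heart, 1219 ± 129 in spleen, 912 ± 138 in muscle, 852 ± 102 in liver and 234 ± 33.2 in brain. Here heart and spleen overlapped within the spread, and so did muscle and liver. The lowest tissue was brain for both probes. Before correction the spots of dre-miR-223 ran from 753 to 982 in spleen and from 1944 to 2715 in heart, which do not overlap, while those of ola-miR-223 ran from 5363 to 5801 in spleen and from 5403 to 6301 in heart, which do. Without normalization between arrays the median log2 ratio of spleen over heart was -0.96 over all 298 probes detected in both tissues. In these raw ranges a difference between whole arrays cannot be told apart from one of these probes.

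The liver values of these miRNAs were the least precise. The 5 liver spots of ola-miR-223 had densities of 1990, 1147, 1910, 1028 and 220, a range of 9.06-fold, and those of ipu-miR-142 were 497, 1555, 1226, 693 and 316, a range of 4.92-fold. Across the 8 probes the highest liver spot was 1.29 to 9.06 times the lowest, against at most 1.42 times in any other tissue, and dre-miR-223 was the probe with the evenest liver spots. The lowest liver spot was the fifth one for 5 of the 8 probes, the third for 2 and the first for 1. Leaving out the low spot of ola-miR-223 raised its liver over muscle ratio from 1.60 to 1.94.

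Probes of 1 arm share most of their target, so the counts of probes above and below are repeated readings of few miRNAs. They are not counts of separate members. Among probes detected in at least 1 tissue, Signal was highest in spleen for 7 of 10 miR-142 and miR-223 probes, against 22.6% of all such probes. These 7 were ola-miR-223 and the 6 miR-142 probes that were not the C form, and the remaining probe of the 8, dre-miR-223, was highest in heart. Spleen and heart were the 2 highest tissues for 7 of 8 probes detected in at least 2 tissues, against 7.0% of all such probes (28 of 400). The exception was ola-miR-223, whose liver value came second. In the probes detected in all 5 tissues, brain was lowest for 7 of 7, against 23.5% of all. The counts for spleen and for brain depended on the normalization. With no normalization between arrays spleen was highest for 0 of the 8 probes and brain was lowest for 2 of 7, muscle being lowest for 2 and liver for 3. Spleen and heart were the 2 highest tissues for 8 of 8 probes in that setting, and for 7 or 8 of 8 in the other 6 settings. Shares over all probes were taken in the main setting only, so the counts of the other settings have none beside them. With no normalization the median log2 ratio of spleen over heart was -0.96 over all 298 probes detected in both tissues. In that setting a difference between whole arrays cannot be told apart from one of these probes.

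The difference between spleen and heart was about 2-fold for most of the probes and rested on the normalization. Spleen over heart was 2.10 ± 0.154 for ccr-miR-142-3p, 2.03 ± 0.139 for ipu-miR-142, 1.94 ± 0.122 for dre-miR-142a-5p, 2.06 ± 0.196 for tni-miR-142b, 2.01 ± 0.166 for ola-miR-142 and 2.12 ± 0.201 for ola-miR-223, where the error combines the SDs of both tissues. It was 1.39 ± 0.157 for dre-miR-142a-3p, and for dre-miR-223 heart over spleen was 1.12 ± 0.191. At a threshold of 2-fold, 5 of 8 probes were called higher in spleen than in heart, against 27.4% of all probes detected in either tissue. The median log2 ratio of spleen over heart was 1.02 over the 6 miR-142 probes and 0.46 over the 2 miR-223 probes, beside 0.23 over all 298 probes detected in both tissues. With no normalization between arrays the median of all 298 probes moved to -0.96 and the ratios of the 8 probes ran from 0.374 to 0.990, all below 1. With each array scaled to its 75th percentile they ran from 0.753 to 1.99, so that 0 of the 8 reached 2-fold.

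**Figure D3:**
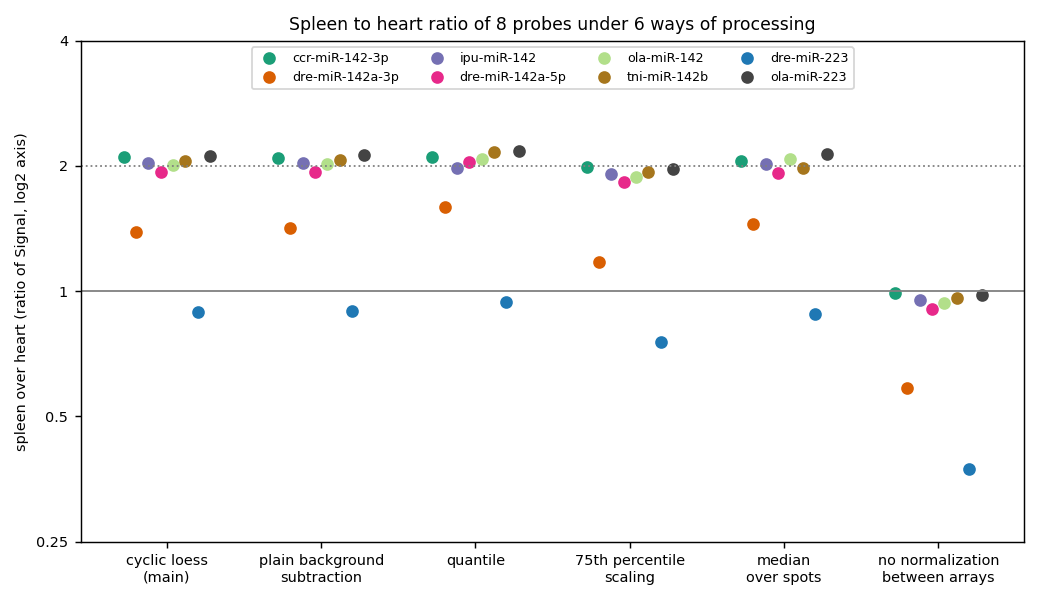
Ratio of spleen to heart Signal (log2 axis) of the 8 probes under 6 ways of processing, with lines at 1 and at 2. The 5 probes called at 2-fold in the main processing lie at 2.01 to 2.12 there, all 8 lie below 1 with no normalization between arrays, and dre-miR-142a-3p and dre-miR-223 are the lowest in every setting.

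Spleen stood above liver, muscle and brain for all 8 probes in each of the 7 settings. The share of all probes that did so was not taken, and the 2-fold shares below are those of the main setting. Spleen over brain was largest for the shorter 3p probes, 16.5 ± 1.05 for ccr-miR-142-3p and 16.3 ± 1.79 for ipu-miR-142, and smallest for dre-miR-223 with 5.22 ± 0.925. In the other 5 probes it lay between 6.53 and 12.6. All 8 of 8 probes were at least 2-fold higher in spleen than in brain, against 26.0% of all probes detected in either tissue. The median log2 ratio of spleen over brain was 3.48 for miR-142 and 3.02 for miR-223, whereas over all probes it was -0.15. Spleen over muscle was 7.24 ± 0.530 for ccr-miR-142-3p, 4.63 ± 0.347 for dre-miR-142a-5p, 3.31 ± 0.247 for ola-miR-223 and 1.34 ± 0.246 for dre-miR-223. It reached 2-fold for 7 of 10 probes, against 18.1% of all, the 3 others being dre-miR-223 and the C form. Spleen over liver was 2.84 ± 0.410 for ccr-miR-142-3p, 6.80 ± 2.29 for dre-miR-142a-5p and 1.43 ± 0.228 for dre-miR-223. For dre-miR-142a-3p it was 4.36 against a liver Signal without detection (410 ± 244), a spread that this ratio leaves out. It reached 2-fold for 7 of 8 probes, against 15.5% of all. One of the 7 was ola-miR-223 with 2.07 ± 1.23, which fell under 2-fold without its low liver spot. With no normalization between arrays spleen over liver was larger for all 8 probes, with a median of 9.92 against 4.61 and values of 6.75 for ccr-miR-142-3p and 16.4 for dre-miR-142a-5p. The shift of this ratio over all probes was not taken. In that setting a difference between whole arrays cannot be told apart from one of these probes.

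In heart, the probes stood above brain and muscle, and above liver for 7 of the 8. The share of all probes that did so was not taken. Shares at 2-fold are given below for brain and muscle, and none was taken for liver. Among the 7, dre-miR-142a-3p was not detected in liver. Heart over brain was 4.59 to 8.05 and reached 2-fold for 8 of 8 probes, against 16.2% of all probes detected in either tissue. Heart over muscle was 3.45 ± 0.345 for ccr-miR-142-3p, 3.16 ± 0.351 for ipu-miR-142, 2.39 ± 0.159 for dre-miR-142a-5p and 2.31 ± 0.263 for tni-miR-142b, which makes 4 of 10 at 2-fold against 9.05% of all probes. It was lower for ola-miR-142 (1.86 ± 0.229), dre-miR-142a-3p (1.73 ± 0.222) and both miR-223 probes (1.56 ± 0.124 for ola-miR-223 and 1.50 ± 0.302 for dre-miR-223). Across the 7 settings heart over muscle stayed above 1 for the 8 probes, with its highest values, 5.35 to 16.7, where the arrays were not normalized. Over all probes this ratio was taken in the main setting only. In the values with no normalization a difference between whole arrays cannot be told apart from one of these probes. Heart over liver was 2.40 to 3.99 for ipu-miR-142 and the 5p probes, 1.35 ± 0.216 for ccr-miR-142-3p and 1.61 ± 0.287 for dre-miR-223. For dre-miR-142a-3p it was 3.14 against the liver Signal without detection. For ola-miR-223 liver over heart was 1.03 ± 0.611, so heart did not stand out for this probe. Muscle over brain was 2.27 to 2.72 for the miR-142 probes and 3.82 to 3.90 for the miR-223 probes, but from 0.734 to 1.80 over the 8 probes with no normalization.

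The C form of miR-142-5p gave almost no signal where the A form was bright. In spleen the 5 spots of tni-miR-142b had densities between 8155 and 8512, and those of dre-miR-142b-5p, which differs by A12C, had a median of 82.0 and reached at most 90.9, where the median empty spot was 72.9. In heart the densities were 7344 to 9300 for tni-miR-142b and 61.8 to 74.6 for dre-miR-142b-5p. The shorter pair was alike, with 7578 to 8403 for dre-miR-142a-5p and 75.7 to 90.8 for ccr-miR-142-5p in spleen. The Signals of the C form were 35.3 to 66.0 over all tissues. Its detection in muscle, with Signal 45.2 for ccr-miR-142-5p and 37.6 for dre-miR-142b-5p, came on the array whose empty spots had the smallest SD (4.91), and Signals as high in other tissues were not detected. With a limit of 5 SD neither was detected in any tissue, while with a robust SD ccr-miR-142-5p was detected in brain and muscle and dre-miR-142b-5p in brain and heart. Outside miR-142, 44 pairs of probes of equal length differed by 1 base with the brighter probe above Signal 500 in spleen, and the dimmer one was not detected there in 6 of them. All 6 were among the 22 pairs with the differing base in the middle of the target, from position 8 to the 8th base from the 3′ end. Whether sturgeon has a C form was not tested.

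For the 5p arm of miR-223, ipu-miR-223 gave Signals of 27.6 to 43.5 and spot densities of 72.0 to 85.1 in spleen and 59.4 to 67.6 in heart. The 3p arm was bright on the same arrays. The target is that of channel catfish, and the sturgeon sequence of this arm is not known from the sources used here, so a low signal does not show that the arm is absent.

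Probes with nested targets, one being the other with 1 base added at an end, favoured spleen alike in some pairs and differently in others. The log2 ratio of spleen over heart was 0.05 higher for ccr-miR-142-3p than for ipu-miR-142 (A at the 3′ end) and 0.09 lower for dre-miR-142a-5p than for tni-miR-142b (A at the 3′ end). It was 0.55 higher for ipu-miR-142 than for dre-miR-142a-3p (U at the 5′ end) and 1.25 higher for ola-miR-223 than for dre-miR-223 (C at the 3′ end). In 81 other nested pairs detected in both tissues the absolute difference had a median of 0.13 and was at most 1.09. Of these pairs, 0 exceeded the miR-223 pair and 10 exceeded the pair of ipu-miR-142 and dre-miR-142a-3p. The pair of ccr-miR-142-3p and ipu-miR-142 was exceeded by 64 of them, and the pair of dre-miR-142a-5p and tni-miR-142b by 49. With no normalization between arrays the 2 larger differences were 0.70 and 1.39, beside a median of 0.12 and a largest value of 1.26 in the other pairs. The comparison of nested pairs was chosen after these values had been seen, and it is a description of 1 array per tissue. The part of the strength of the signal in these differences was not tested.

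Red blood cells and other immune cells are further sources of RNA in these tissues, and their miRNAs are set beside miR-142 and miR-223. The red cell list held miR-144 and miR-451, which are processed from 1 transcript in developing red cells. All 6 of its probes were detected and highest in spleen, with a median log2 ratio of spleen over heart of 2.75 (range 1.58 to 3.91) and a summed Signal of 36754 in spleen and 3704 in brain, with 8279 in heart, 8866 in muscle and 9089 in liver between them. For the 11 miR-142 and miR-223 probes the summed Signal was 51681 in spleen, 26581 in heart, 12709 in liver, 11807 in muscle and 4525 in brain. The lists here and below differ in their number of probes and hold several probes for 1 miRNA. Their sums can therefore be compared between tissues but not between lists. Most of the red cell sum came from dre-miR-451, with Signal 19347 in spleen, 6476 in heart, 6819 in muscle and 6988 in liver, and 2 of the 6 probes were detected in liver. The miR-144 probes did not share an order of heart and muscle. ola-miR-144 had Signal 280 in heart and 535 in muscle, and pol-miR-144-5p had 435 and 561. For ccr-miR-144 heart was higher, with 509 against 359. Heart and muscle were close for dre-miR-144 (276 and 287) and pol-miR-144-3p (303 and 305). The white cell sum was carried mostly by miR-142, which had 8 of the 11 probes. The heart to muscle and heart to liver ratios of single probes are those given above.

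The list of other immune miRNAs held miR-146, which damps Toll-like receptor signalling, miR-150, a miRNA of mature lymphocytes, and miR-155, which rises in activated immune cells. All 7 of its probes were detected, 4 of them highest in spleen and 3 in heart. Their median log2 ratio of spleen over heart was 0.05, with a range from -0.78 to 2.24, so the list held both miRNAs level between the tissues and miRNAs far higher in 1 of them. The miR-150 probes were higher in heart than in spleen, with Signal 4199 against 2450 for dre-miR-150 and 5209 against 3360 for ola-miR-150. dre-miR-146b was higher in spleen, with 9318 against 1974. The summed Signal of the list was 23717 in spleen, 18585 in heart, 4052 in muscle, 4003 in liver and 3434 in brain. For endothelial miR-126, 5 of 6 probes were detected, with a median log2 ratio of spleen over heart of -0.27 and no probe highest in spleen. The part of red cells, lymphocytes or vessels in the values of miR-142 and miR-223 was not tested.

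**Figure D4:**
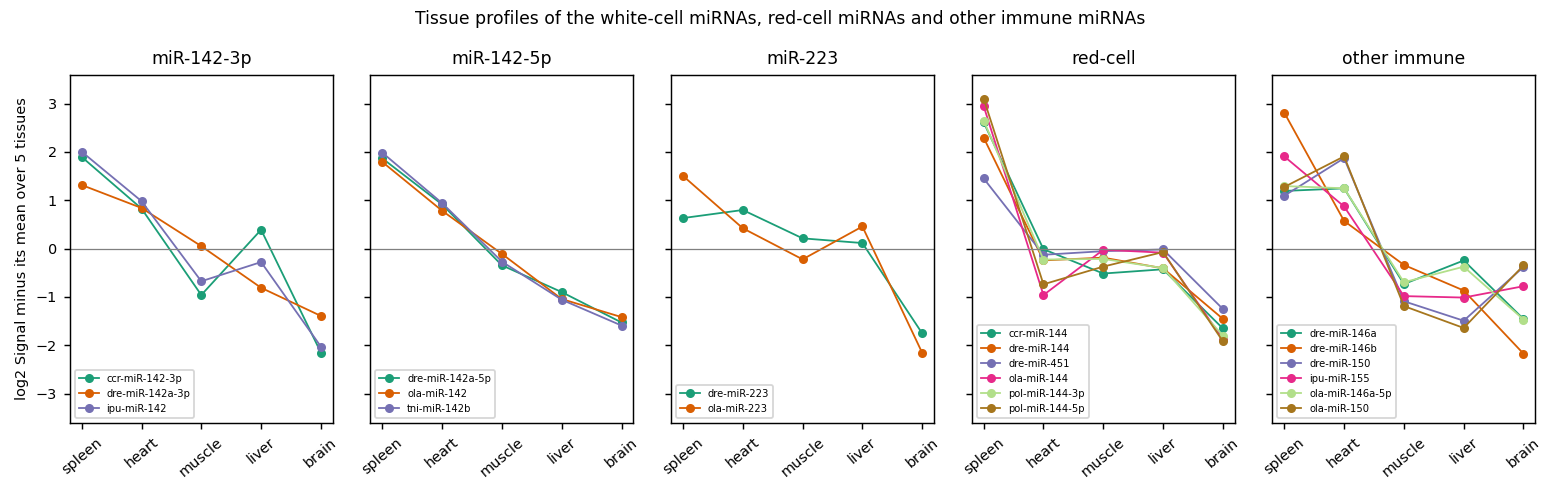
Log2 Signal minus its mean over the 5 tissues, per probe, for miR-142-3p, miR-142-5p, miR-223, the 6 red cell probes and the 6 of 7 other immune probes detected in at least 4 tissues. The red cell probes drop steeply from spleen to heart, the miR-142 probes drop by about 1 unit (median 1.02), and both miR-150 probes rise.

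The tissue profile of each arm was the mean of the centred log2 Signals of its probes detected in at least 4 tissues. Among 278 other probes detected in at least 4 tissues, those most like it were found by the root mean square difference over 5 tissues. For miR-142-3p these were ola-miR-146a-5p (0.33), dre-miR-146a (0.36), ccr-miR-144 (0.57), dre-miR-451 (0.59) and dre-miR-146b (0.60), where the median of all probes compared was 1.44. For miR-142-5p they were ola-miR-146a-5p (0.46), ipu-miR-155 (0.47), dre-miR-146a (0.53), dre-miR-146b (0.53) and ccr-miR-144 (0.59), with a median of 1.42. For miR-223 they were dre-miR-451 (0.51), dre-miR-146a (0.54), ola-miR-146a-5p (0.57), dre-miR-455b (0.61) and ccr-miR-18b (0.62), with a median of 1.25. The miR-146a probes, which share most of their target, were thus among the 5 nearest of all 3. Between members, dre-miR-223 and ola-miR-223 differed by 0.52, about as much as ola-miR-223 and ipu-miR-142 (0.52), and ccr-miR-142-3p lay nearer to ola-miR-223 (0.42) than to dre-miR-142a-3p (0.82). The distances used all 5 tissues, including liver, where dre-miR-142a-3p was not detected. The centred liver value of that probe was -0.81, against 0.39 for ccr-miR-142-3p. Among the nearest probes named, ccr-miR-144, ipu-miR-155, dre-miR-455b and ccr-miR-18b were not detected in liver either. Their liver Signals were 382, 181, 227 and 218, so their distances rest in part on values without detection. With 5 tissues and 1 array each, these distances are descriptions.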

How the data were processed

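Total RNA (2 to 5 µg per the labels) of each tissue was hybridized to 1 array. The labels name a column kit for the extraction and the Methods another reagent. The authors deposited the scanner output of each array, giving for every spot the median density and its SD over the pixels, a linear intensity before background subtraction, with commas inside larger numbers, which were removed. The authors also deposited a table of processed intensity values for 663 probes, whose medians were 22.7 (spleen), 30.4 (liver), 36.6 (heart), 40.1 (brain) and 52.3 (muscle). It was not used, since its row names did not follow the scanner values (Pearson r by name between 0.0137 and 0.0897, across probes), and its centring is not stated.

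Density was background corrected by normexp (offset 50) over all spots and normalized by cyclic loess (3 iterations) over the probe spots with limma 3.58.1 in R 4.3.3, the offset was taken off, and the 5 spots were averaged to Signal. The steps were also run on simulated arrays with known changes in some probes and a fixed gain per array. The simulation held no overall difference in miRNA level between tissues, so it does not show how normalization treats such a difference. A probe was detected when at least 50% of its spots exceeded the 20 nearest empty spots (their median) by 3 SD of all empty spots with a pixel CV under 0.5. A ratio to a tissue with no detection was taken against the lowest detected Signal on that array or the Signal of the probe itself, whichever was higher. Such a ratio is given with no error and leaves out the spread of the spots without detection. Calls used 2-fold. Alternatives were plain background subtraction, quantile or 75th percentile scaling or none between arrays, a median in place of the mean of spots, spots over 3-fold below their probe's median left out, and 5 SD or a robust SD for detection.

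All members were described, and likeness named the 5 nearest probes by root mean square. The arm of a target was read from its place in zebrafish and carp hairpins in the study's supplement. Members and lists were chosen with earlier results of these data known. No genome was used, so coordinates are not given.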

Additional observations from a re-analysis of the deposited data

How the results depend on the processing

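With 1 array per tissue no test was run, and no replicate could be left out. No paired analysis was possible because each tissue has 1 sample. Plain background subtraction, the median over spots and leaving out failed spots kept the count of probes highest in spleen and the medians within the spot spread. With no normalization between arrays, spleen was highest for 0 probes, the median log2 ratio of spleen over heart was -0.084 for miR-142 and -0.73 for miR-223, and spleen over heart was below 1 for all 8 probes, having turned from above 1 for dre-miR-142a-5p (0.908), dre-miR-142a-3p (0.585), ccr-miR-142-3p (0.990), ipu-miR-142 (0.952), ola-miR-142 (0.935), tni-miR-142b (0.962) and ola-miR-223 (0.978). Over all 298 probes detected in both tissues the median log2 ratio of spleen over heart moved from 0.23 to -0.96 as well. In that setting a difference between whole arrays cannot be told apart from one of these 8 probes. The median log2 ratio of spleen over brain was 3.69 with quantile normalization, 3.03 with none and 3.97 with scaling to the 75th percentile for miR-142, and 3.30, 2.52 and 3.45 for miR-223. Spleen over muscle was 2.81, 3.35 and 2.98 for miR-142, and 1.52, 1.90 and 1.53 for miR-223, in the same order of settings, against main values of 2.23 and 1.07. Spleen over liver, as a median ratio over the 8 probes, moved from 4.61 to 9.92 with no normalization. The cause was not tested. Detection in at least 1 tissue fell from 10 to 8 probes with 5 SD and was 10 with a robust SD. Detection in all 5 tissues held for 7 probes in the main setting, 6 with 5 SD and 8 with a robust SD. With 5 SD dre-miR-223 was not detected in liver, and with a robust SD dre-miR-142a-3p was detected there. With scaling to the 75th percentile and with no normalization 3 of the 5 probes nearest to miR-223 were shared with the main list, as were 3 of the 5 nearest to miR-142-5p with quantile normalization. Low signals are limited most in liver, where the lowest detected Signal was 366, against 28.0 to 58.2 in the other tissues.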
